A study of Mus musculus with 28 samples.

Results

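In WT mouse embryonic stem cells (mESCs), 1101 of 13749 H3K27Ac peaks on the autosomes overlapped an H3K9me3 domain by at least 1 bp, a share of 8.01% (Wilson 95% interval 7.57 to 8.47). These 1101 peaks, called domain peaks here, were chosen from the WT lists of both marks, so the presence of WT H3K27Ac and WT H3K9me3 is a description and not a result. The whole WT H3K27Ac list held 13922 peaks, and the 12648 autosomal peaks outside WT domains served as the comparison. Not every domain peak lay within a domain: 636 (57.8%, 54.8 to 60.7) were covered over their whole length, 433 (39.3%) crossed 1 end of a domain, 16 spanned a domain and 16 reached from 1 domain into another.

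Chromatin was profiled in HATX mESCs, a haploid line carrying a doxycycline-inducible Xist transgene, and in clone 2 of a Spen knockout of that line (Spen KO). Both lines had a mixed genomic background and were grown in serum with LIF, and no doxycycline treatment is named in the labels of these libraries. For each of 4 antibodies, against H3K27Ac, H3K4me3, H3K9me3 and Oct4, 2 libraries were made per genotype from fixed, sonicated chromatin by transposase tagging. The Spen KO cells are 1 clone, so the knockout and the clone cannot be told apart. Each histone mark came as 1 list per genotype, so its comparisons between WT and Spen KO have no replicate test, and their intervals cover counting error only. Oct4 came as 1 list per library. The study's methods call replicate libraries technical replicates, so p-values over them may measure technical spread alone. The files hold no read numbers and the sequencing depth is unknown. As a check of the cell type, 23 of 26 pluripotency genes on autosomes had a WT H3K27Ac peak within 1000 bp of a transcription start site (TSS). Over all protein-coding genes on autosomes it was 4405 of 21281 (20.7%). Genes of the H3K9me3 machinery also had a high count, 21 of 29 (72.4%), so the check is a weak one.

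H3K27Ac is an acetylation of histone H3 found at active enhancers and promoters, while H3K4me3 is strongest at active promoters. H3K9me3 is laid down by enzymes such as Setdb1 and Suv39h1 and marks silenced chromatin, in mESCs above all at retroviral elements, zinc finger gene clusters and imprinted control regions. Spen is an RNA-binding protein that brings histone deacetylase activity to its targets, and Oct4 is a core transcription factor of pluripotency that binds an octamer sequence. A peak in both lists does not show both marks on the same nucleosome, since each list averages over a population of cells.

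The sequences of 5 domain peaks, each among the strongest of its kind, are shown: an intergenic peak and a Kdelr2 intron peak wholly inside a domain, wholly inside peaks at the TSSs of Gm13235 and Gm13247, and an intergenic peak bound by Oct4 in every library. The last crossed the end of a domain, and its printed bases lay 3.10 kb outside it. Oct4 overlap was counted over the whole peak, so its label does not place Oct4 in the printed bases. Each is the central 120 bases of the peak on the plus strand of mm9, and capitals mark CpG dinucleotides.
Intergenic, chr2:181652373-181652492: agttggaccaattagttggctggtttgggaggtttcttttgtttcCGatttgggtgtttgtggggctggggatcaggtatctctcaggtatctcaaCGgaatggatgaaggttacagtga
Kdelr2 intron, chr5:144175806-144175925: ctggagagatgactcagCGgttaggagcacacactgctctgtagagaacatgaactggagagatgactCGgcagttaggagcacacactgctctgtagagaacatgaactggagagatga
Gm13235, chr4:145460121-145460240: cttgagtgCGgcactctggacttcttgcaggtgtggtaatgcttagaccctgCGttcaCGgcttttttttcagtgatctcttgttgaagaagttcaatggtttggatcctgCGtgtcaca
Gm13247, chr4:145695495-145695614: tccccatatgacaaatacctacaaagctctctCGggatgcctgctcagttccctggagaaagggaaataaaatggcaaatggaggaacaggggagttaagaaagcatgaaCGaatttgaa
Oct4-bound, chr2:143985298-143985417: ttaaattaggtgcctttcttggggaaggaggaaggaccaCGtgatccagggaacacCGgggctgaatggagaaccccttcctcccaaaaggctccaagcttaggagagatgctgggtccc

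The windows held 2 CpGs each, except that of Gm13235 with 4. The Kdelr2 stretch repeated itself: over the whole peak, bases 54 apart were identical at 52.7% of positions, the best offset from 21 to 200 bases. Such self-likeness of 50% or more was found in 14 domain peaks (1.27%) and in 72 other peaks (0.569%). Across all domain peaks the median GC content was 45.9%, against 50.6% at other peaks, and the median observed over expected CpG ratio was 0.180 against 0.257. Among peaks without a TSS within 1000 bp the gaps were smaller, with 45.8% against 48.3% and 0.177 against 0.201.

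Domain peaks resembled other peaks in strength and width, but not in strength once promoters were left out. Their median percentile by mean score of both H3K27Ac libraries was 52.8, against 49.6 at other peaks, and their median width was 1126 bp against 1156 bp. Among peaks without a TSS within 1000 bp the median percentile was 52.6 against 41.7, and the median width 1094 bp against 1152 bp. WT domains covered 15.1% of the autosomal bases (373 of 2472.3 Mb) but 5.38% of the bases of H3K27Ac peaks, so H3K27Ac was found less in domains than their extent would give. In Spen KO, 772 of 11620 autosomal H3K27Ac peaks (6.64%) lay in Spen KO domains, and 1203 (10.4%) lay in WT domains.

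The domain peaks used few domains. They sat in 813 of 50521 autosomal WT domains (1.61%), of which 608 held 1, 153 held 2 and 52 held 3 or more. The hosting domains had a median width of 6.4 kb, against 5.4 kb for all domains, and a median score of 156 against 147, where a score of 100 stands for about a doubling of ChIP over input. Of the 636 wholly inside peaks, 211 (33.2%) lay less than 1000 bp from the nearer end of the domain and 122 (19.2%) lay 5000 bp or more from both ends.

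The margin of the rule was thin for some peaks. Overlap was under 200 bp in 53 domain peaks, and 55 other peaks lay under 200 bp away from a domain. The least overlap was 1 bp, at chr9:50636590-50638201 in an intron of Alg9, and then 3 bp in an intron of Aqr and 11 bp near Dennd2a. The nearest peaks left out lay 6 bp from a domain near Tmsb10, 7 bp in an intron of Dysf and 19 bp in an intron of Grhl2. Peaks with at least 50% of their bases in a domain numbered 858, or 77.9% of the domain peaks.

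Most domain peaks lay far from promoters. A TSS of a protein-coding gene was within 1000 bp of 82 domain peaks (7.45%, 6.04 to 9.15), against 39.8% (39.0 to 40.7) of other peaks and a background of 37.2% over all autosomal peaks. The median distance to a TSS was 25.6 kb, against 3.22 kb at other peaks. By annotation, 61.5% of domain peaks were intergenic, 23.5% intronic and 15.0% touched an exon, while other peaks were intergenic in 26.4%, intronic in 28.5% and exonic in 45.1%.

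H3K4me3 was less frequent as well. It was called in WT at 273 domain peaks (24.8%, 22.3 to 27.4; background 57.4%), against 60.2% of other peaks. In Spen KO it was called at 255 (23.2%; background 51.9%), against 54.4% of other peaks. Among peaks without a TSS, H3K4me3 was called in WT at 21.2% (18.8 to 23.8) of domain peaks and 39.3% (38.2 to 40.4) of other peaks. The split by TSS was chosen after the values were seen. Even at a TSS, 57 of 82 domain peaks (69.5%, 58.9 to 78.4) had WT H3K4me3, against 91.8% of other TSS peaks. Between genotypes, 61 domain peaks (5.54%; background 8.44%) had H3K4me3 in WT and not in Spen KO, and 43 (3.91%; background 2.97%) had it in Spen KO and not in WT. Only peaks with WT H3K4me3 could lose it: 61 of 273 domain peaks (22.3%, 17.8 to 27.6) and 1100 of 7614 other peaks did. Of those without it, 43 of 828 domain peaks (5.19%, 3.88 to 6.92) gained it, as did 365 of the remaining peaks among the 12648 others. On this base both orders turned, with a higher share of loss and a lower share of gain at domain peaks.

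**Figure D1:**
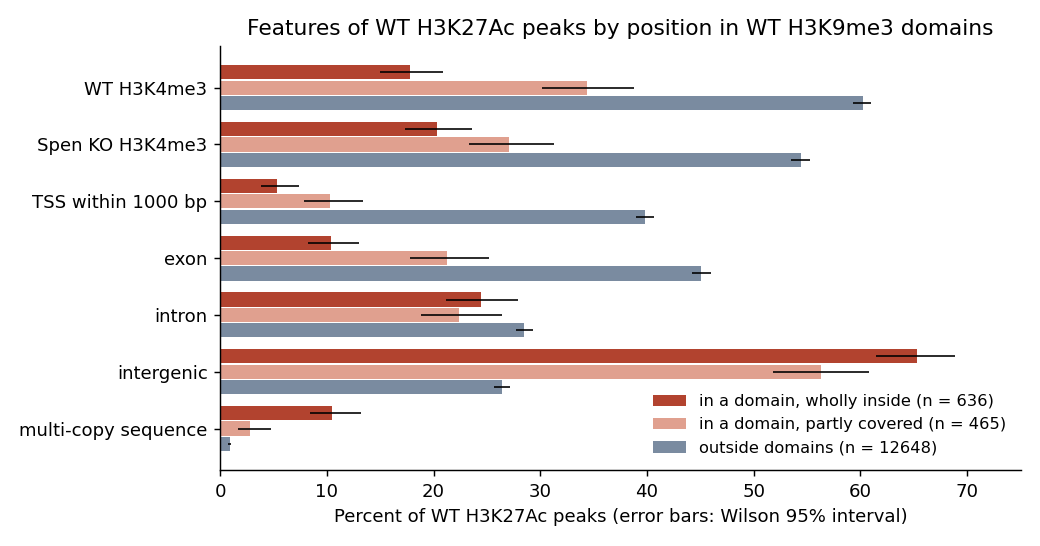
Percent of WT H3K27Ac peaks (horizontal axis) with each feature, for peaks wholly inside a WT H3K9me3 domain, peaks partly covered and peaks outside domains, with Wilson 95% intervals as error bars. WT H3K4me3 goes from 17.8% wholly inside to 34.4% partly covered and 60.2% outside, while multi-copy sequence goes from 10.5% to 2.80% and 0.878%. Partly covered peaks are wider than wholly inside peaks (median 1815 bp against 859 bp), and the part of width in these shares was not tested.

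Repeated sequence was found more often than at other peaks but in a minority. Multi-copy peaks were those in which 50% or more of the words of 31 bases were present 10 times or more in the genome. This held for 80 domain peaks (7.27%, 5.88 to 8.95; background 1.39%) and for 111 other peaks (0.878%). The share was 10.5% wholly inside domains and 2.80% at partly covered peaks. Domain peaks that were not multi-copy could still hold repeated words, with a median of up to 9 copies per word in a peak. The kept reads had mapped uniquely according to the study's methods, but alignments with multiply mapping reads were made too, and which of them gave the lists is not given in the sources used here. The strongest multi-copy domain peak, 231 bp in an intron of Gtf2ird1 at chr5:134854721-134854951, had a median of 820 copies per word.

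The domain peaks were unevenly placed. Chromosome 13 had the highest share of its H3K27Ac peaks in domains, 112 of 599 (18.7%, 15.8 to 22.0), and chromosome 19 the lowest, 19 of 432 (4.40%, 2.83 to 6.77). A single 5 Mb stretch of chromosome 13, from 65 to 70 Mb, held 65 domain peaks among its 117 H3K27Ac peaks, with no TSS within 1000 bp of any of them. A stretch of chromosome 4, from 145 to 150 Mb, held 60 of 137, of which 15 had a TSS. The 10 fullest stretches together held 214 domain peaks (19.4%), while 343 of 488 stretches with an H3K27Ac peak had at least 1.

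**Figure D2:**
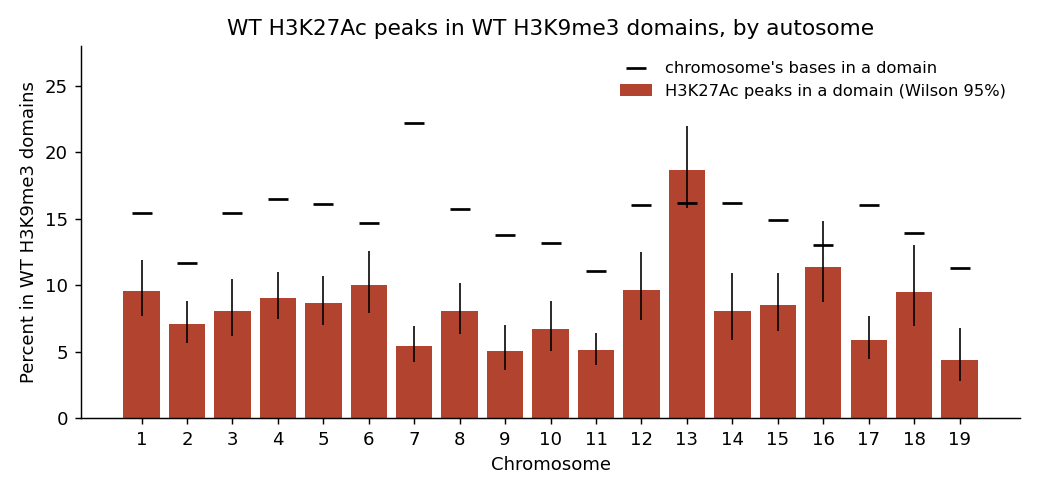
Percent of WT H3K27Ac peaks that overlap a WT H3K9me3 domain (bars, with Wilson 95% intervals) and percent of each chromosome's bases in a domain (dashes), by autosome. The bar of chromosome 13, at 18.7%, is the highest and the only one above its dash, while that of chromosome 7 is 5.45% although 22.2% of its bases lie in domains. A bar counts peaks that touch a domain by at least 1 bp and a dash counts bases, so their heights are unlike measures.

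The next comparison asked whether the acetylation at domain peaks was also called without Spen. H3K27Ac was found in the Spen KO list at 740 of 1101 domain peaks (67.2%, 64.4 to 69.9; background 59.9%), against 59.3% (58.5 to 60.2) of other peaks, and 361 were absent (background 40.1%). The share was 64.5% wholly inside domains and 71.0% at partly covered peaks, which were also wider and stronger. At a TSS it was 69.5% (58.9 to 78.4) of domain peaks and 76.6% (75.4 to 77.7) of other peaks. Away from a TSS it was 67.0% (64.1 to 69.8) of domain peaks and 47.9% (46.8 to 49.0) of other peaks, a difference of 19.1 percentage points.

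Peak strength moved with these shares, as stronger WT peaks were found in Spen KO more often in both groups. Over all peaks, domain peaks were above other peaks beyond counting error in the weakest quintile by WT score (35.3% against 20.5%) and the middle quintile (68.5% against 59.8%), the intervals overlapped in the second (49.1% at domain peaks) and the fourth (79.8% against 78.1%), and in the strongest the order turned (92.7% against 94.4%, intervals overlapping). In the stronger 50% of the list the difference was 1.97 percentage points. Among peaks without a TSS, the share in the weakest quintile by WT score was 36.7% (29.6 to 44.5) at domain peaks and 17.4% (15.8 to 19.1) at other peaks. In the middle quintile it was 68.5% (62.0 to 74.3) against 48.8% (46.2 to 51.3). In the strongest quintile the values were 92.3% (88.0 to 95.1) and 90.0% (88.1 to 91.6), with overlapping intervals. The higher share at distal domain peaks was therefore found in each of the lower 4 quintiles beyond counting error. At the median, the score percentiles of shared peaks were alike, with a Spen KO minus WT difference of 0.138 at domain peaks and -1.02 at other peaks. Single peaks shifted widely, with quartiles of -16.5 and 14.6 at domain peaks and -15.3 and 12.4 at other peaks. Percentiles are ranks within the list of each genotype and cannot show a change in level.

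**Figure D3:**
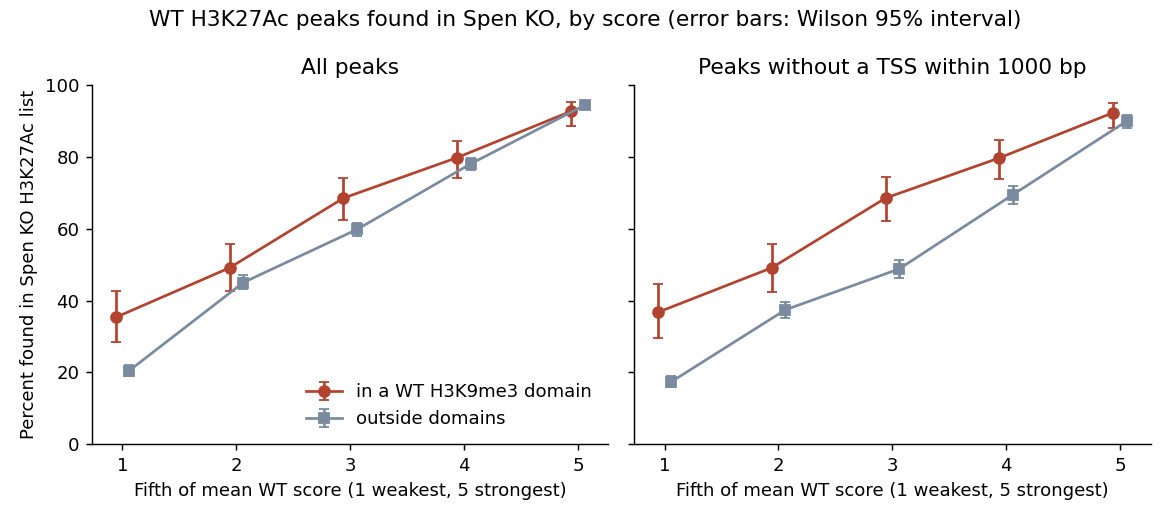
Percent of WT H3K27Ac peaks found in the Spen KO H3K27Ac list (vertical axis) by quintile of the mean WT score, for domain peaks and peaks outside domains, with Wilson 95% intervals. For peaks without a TSS within 1000 bp (right), domain peaks lie above other peaks in the lower 4 quintiles, from 36.7% against 17.4% in the weakest quintile, and the intervals overlap in the strongest.

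H3K9me3 itself was called less often at these peaks in Spen KO than in the rest of the domains. At 641 domain peaks (58.2%, 55.3 to 61.1) some Spen KO H3K9me3 was found, with a background of 5.37% over all autosomal H3K27Ac peaks, nearly all of which lie outside WT domains. Counted by base, 50.5% of the 1.19 Mb of WT H3K9me3 under domain peaks was in Spen KO domains, against 73.8% of the other bases of the same domains and 73.6% of all autosomal WT domain bases. Under the domain peaks that were not multi-copy it was 49.8%. The share went up with distance from the domain peak: 56.4% at 0 to 500 bp, 65.8% at 1000 to 2000 bp and 82.6% at over 4000 bp.

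The difference was present at each position in the domain. Domain ends were shared less than domain centres everywhere, but under H3K27Ac the share was lower at each distance from the domain's nearer end. Within 500 bp of the end it was 34.2% under domain peaks and 45.8% elsewhere, at 1000 to 2000 bp it was 53.3% and 71.1%, and at over 4000 bp it was 55.0% and 90.5%. The score of the domain gave the same order: in the weakest quintile of domains 38.2% of bases under domain peaks and 58.6% elsewhere were shared, and in the strongest quintile 65.1% and 83.7%.

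Other peaks in WT domains gave higher values. Under the 2872 WT H3K4me3 peaks that lay in WT domains without an H3K27Ac peak, 81.3% of the domain bases were in Spen KO domains, and under 372 Oct4 peaks of WT replicate 2 without H3K27Ac the share was 71.4%. With the genotypes exchanged, the order turned as well. Of the Spen KO domain bases under Spen KO H3K27Ac peaks, 86.4% were in WT domains, against 79.2% elsewhere. Within 500 bp of the end of a Spen KO domain these shares were 77.7% and 61.7%, and at over 4000 bp 92.2% and 95.6%. WT domains were wider, with a median of 5.4 kb against 3.8 kb in Spen KO, and their number was 50521 against 65419 on autosomes; the part of domain width in these shares was not tested. These counts by base were chosen after other values were seen and have no replicate test.

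**Figure D4:**
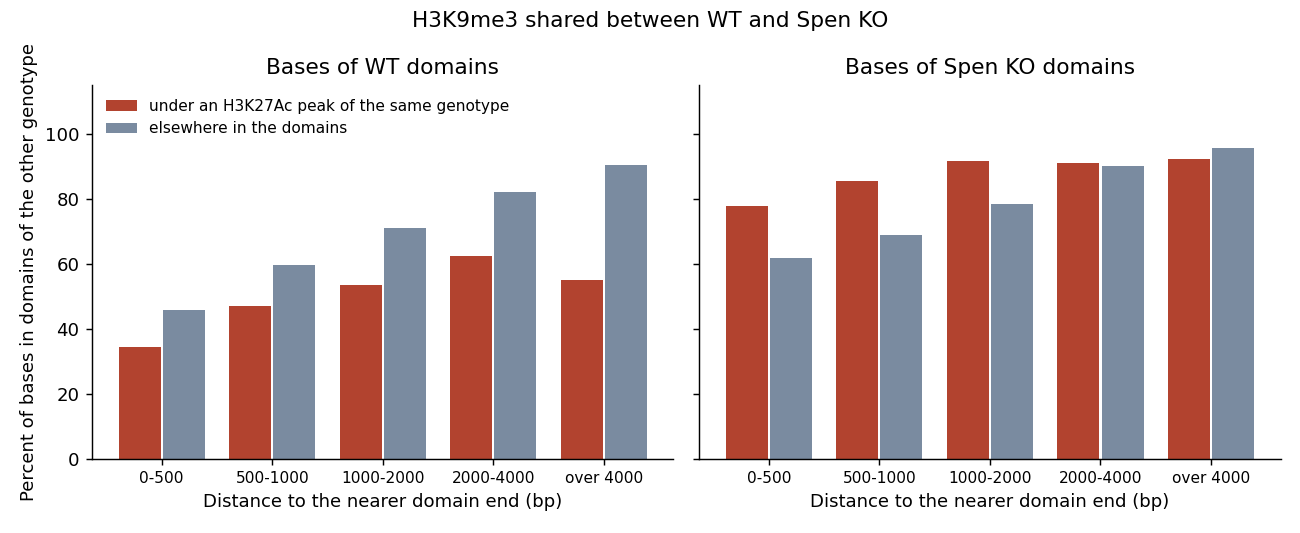
Percent of H3K9me3 domain bases that lie in a domain of the other genotype (vertical axis), by distance to the nearer end of the domain, under an H3K27Ac peak of the same genotype and elsewhere. For WT domains (left) the bases under H3K27Ac peaks are lower at each distance, for example 55.0% against 90.5% at over 4000 bp, while for Spen KO domains (right) they are higher in 4 classes, most at 500 to 1000 bp (85.5% against 68.8%) and least at 2000 to 4000 bp (91.0% against 90.1%), and lower at over 4000 bp.

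Whole domains gave the same order. A Spen KO domain overlapped 639 of 813 hosting domains (78.6%, 75.6 to 81.3; background 87.7%), against 87.8% of domains without a domain peak. In domains of up to 4 kb the shares were 55.2% (48.9 to 61.3) and 75.3% (74.6 to 76.0), and in domains over 16 kb they were 97.5% and 99.9%.

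Both marks could be followed at each peak. Of the 1101 domain peaks, 427 (38.8%) had both marks in Spen KO, 313 (28.4%) had H3K27Ac alone, 214 (19.4%) had H3K9me3 alone and 147 (13.4%) had neither. H3K27Ac was called in Spen KO at 66.6% of the peaks with H3K9me3 there and at 68.0% of those without. By base, 49.5% of the H3K9me3 under peaks with H3K27Ac in Spen KO was shared, and 53.7% under those without.

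Oct4 was examined per library, since its lists were independent of the rule. Domain peaks overlapped an Oct4 peak in 2.91% (WT replicate 1; background 3.57%), 19.1% (WT replicate 2; background 9.3%), 14.5% (Spen KO replicate 1; background 7.93%) and 17.9% (Spen KO replicate 2; background 9.03%). WT replicate 1 stood apart from the other 3 libraries, and its list was the shortest, with 1806 peaks against 2617 to 4111. The genotypes therefore overlapped, with 11.0% ± 11.4 in WT and 16.2% ± 2.38 in Spen KO (SD, n = 2 each). The difference of 5.22 percentage points did not pass an exact two-sided permutation test (p = 1, where the smallest p this design allows is 0.333), and without WT replicate 1 it was -2.86 points.

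Against other H3K27Ac peaks, Oct4 was at more of the domain peaks in 3 of 4 libraries. Other peaks overlapped an Oct4 peak in 3.63%, 8.45%, 7.35% and 8.26%, in the same order of libraries. The mean difference was 6.68 ± 5.14 percentage points (SD, n = 4 libraries), with p = 0.25 in an exact two-sided sign-flip permutation test whose smallest p is 0.125. Without WT replicate 1 it was 9.14 points.

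Away from a TSS, domain peaks had more Oct4 in all 4 libraries. The shares were 2.94%, 19.1%, 14.3% and 18.3% at domain peaks, and 1.29%, 9.73%, 7.60% and 9.55% at other peaks, a mean difference of 6.62 ± 3.50 points (p = 0.125, exact sign-flip permutation, the smallest possible with 4 libraries). With the exception of WT replicate 1, partly covered domain peaks were bound in 19.6% to 25.8% and wholly inside peaks in 10.8% to 14.2%. Partly covered peaks were also wider (median 1815 bp against 859 bp) and stronger (median score percentile 66.8 against 47.0). Whether position in the domain had a part beside width and strength was not tested. Of the Oct4 peak centres within domain peaks, 56.6% to 64.4% by library lay in a domain, as did 62.1% of all bases of domain peaks. None of these tests could pass 0.05 with this number of libraries.

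**Figure D5:**
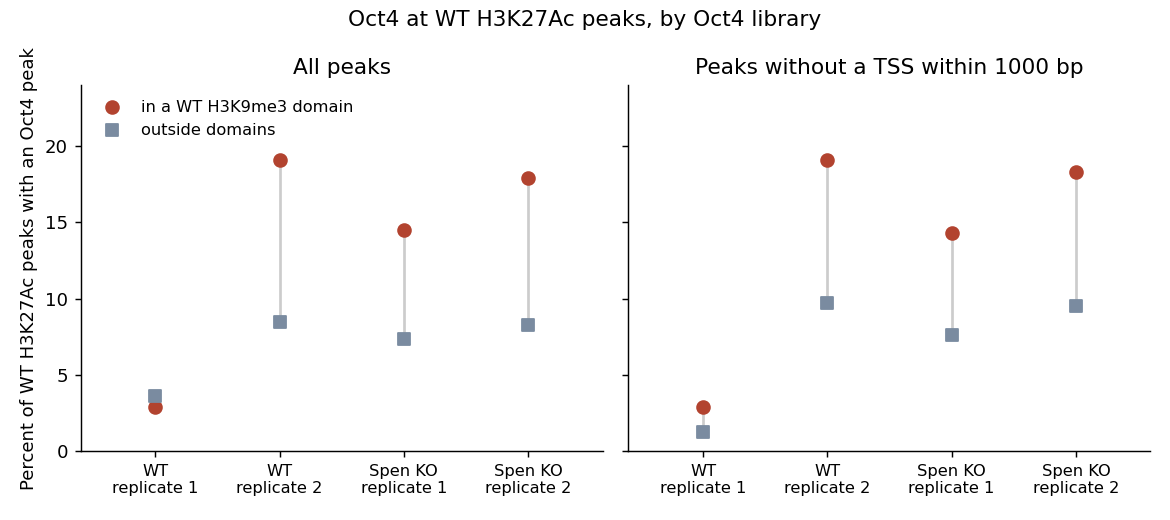
Percent of WT H3K27Ac peaks that overlap an Oct4 peak (vertical axis) in each of the 4 Oct4 libraries, for domain peaks (circles) and peaks outside domains (squares), over all peaks (left) and peaks without a TSS within 1000 bp (right). In WT replicate 2 the shares over all peaks are 19.1% and 8.45%, and in WT replicate 1 they are 2.91% and 3.63%.

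Oct4 was called in 3 or 4 libraries at 88 domain peaks (7.99%; background 4.02%) and in none at 786 (71.4%; background 83.0%). H3K27Ac was in the Spen KO list at 80 of these 88 (90.9%, 83.1 to 95.3) and at 59.5% (56.1 to 62.9) of the 786. The 88 peaks were also stronger and wider, with a median score percentile of 84.4 against 45.1 and a median width of 2960 bp against 972 bp, and H3K27Ac was in the Spen KO list at 92.7% of all domain peaks of the strongest quintile. Whether Oct4 had a part beside strength was not tested. H3K9me3 was in the Spen KO list at 60.2% and 58.3% of them. The median fold enrichment of Oct4 peaks at domain peaks was 6.18 to 6.34 by library, against 6.55 to 6.78 at other H3K27Ac peaks.

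The Oct4 octamer, ATGCAAAT or on the other strand ATTTGCAT, was in the central 300 bp of 22 domain peaks (2.00%, 1.32 to 3.01), of 0.925% of other peaks and of 1.01% of all autosomal peaks. Away from a TSS the shares were 1.86% (1.20 to 2.89) and 1.26% (1.03 to 1.54), with overlapping intervals. Within 300 bp at Oct4 peaks the octamer was about as frequent at domain peaks, 3.12% to 7.01% by library, as at other peaks, 5.01% to 6.70%. TGCCGC or GCGGCA, the word bound by the imprinting factor ZFP57 when methylated, was in the central 300 bp of 2.18% of domain peaks, 8.59% of other peaks and 8.07% of all autosomal peaks, and away from a TSS of 1.86% and 3.73%. This word holds a CpG. Other words with a CpG were also lower at domain peaks: the ETS word CCGGAAGT (0.182% against 1.06%) and the NRF1 word GCGCATGC (0.545% against 1.03%, intervals overlapping). Whether the ZFP57 word differed beyond CpG content was not tested. A match in letters is a description and not a bound site.

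Of the 86 domain peaks with Oct4 in 3 or 4 libraries that were not multi-copy, 83 were searched for the octamer. Of these, 8 held it under the Oct4 peaks of at least 2 libraries. They are shown to place the factor's word against the domains and were chosen after the values were seen, with the octamer in capitals and up to 30 bases on each side (mm9, plus strand).
chr1:88207643-88207710: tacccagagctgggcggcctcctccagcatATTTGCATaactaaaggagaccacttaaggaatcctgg
chr7:71102110-71102177: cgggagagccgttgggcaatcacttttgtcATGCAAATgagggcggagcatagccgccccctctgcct
chr14:106258417-106258484: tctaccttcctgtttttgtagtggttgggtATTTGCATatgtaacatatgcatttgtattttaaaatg
chr10:27734413-27734480: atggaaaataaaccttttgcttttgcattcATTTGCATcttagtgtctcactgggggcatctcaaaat
chr7:6210104-6210168: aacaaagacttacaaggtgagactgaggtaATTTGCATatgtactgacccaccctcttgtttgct
chr8:19990184-19990251: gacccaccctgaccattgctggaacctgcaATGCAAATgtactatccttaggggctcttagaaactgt
chr5:150456260-150456327: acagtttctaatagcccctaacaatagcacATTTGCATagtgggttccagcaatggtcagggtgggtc
chr6:13698238-13698305: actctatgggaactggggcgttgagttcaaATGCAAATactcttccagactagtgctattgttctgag

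The stretches on chromosomes 8 and 5 lay in a WT H3K9me3 domain, and the other 6 lay outside it, in the uncovered part of their peak. With the octamers aligned in 1 orientation, the stretches on chromosomes 8 and 5 were identical at 61 of 68 bases (89.7%). The other 27 of 28 pairs were identical at 19.1% to 44.6% of bases, the 8 octamer bases included.

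Of the 6 strongest wholly inside peaks, 5 were in all histone mark lists of both genotypes, and the exception was the Kdelr2 peak. Most of the 5 were neighbours, on chromosome 2 and on chromosome 16. No filter for high-signal or collapsed sequence was applied, and its part in these calls was not tested. The peak at chr2:181652030-181652836 scored 66.0 and 64.9 in the WT libraries and 58.1 and 79.7 in Spen KO, lay 16964 bp from the end of a domain of 35.4 kb, and had H3K4me3 in both genotypes although the nearest TSS, of the RNA polymerase III subunit gene Polr3k, was 53.0 kb away. Its domain, chr2:181634401-181669800, was the most crowded, with 8 domain peaks that all had H3K27Ac and H3K9me3 in Spen KO. A pair of peaks on chromosome 16, at chr16:3114403-3115224 and chr16:3116166-3116727, scored 57.5 and 55.1, and 54.0 and 52.2, in a domain whose own score was 7.99, far under the median of 156.

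The Kdelr2 peak, chr5:144175121-144176611 in a gene for a receptor that returns proteins to the endoplasmic reticulum, differed from these. Its WT scores were 58.2 and 70.0, against 23.1 and 26.7 in Spen KO, its 10.2 kb domain had no counterpart in Spen KO at the peak, and no H3K4me3 was called. The Gtf2ird1 peak scored 72.0 and 43.5 in WT, and 57.5 and 80.4 without Spen, with H3K4me3 and H3K9me3 in both. In all, 56 domain peaks (5.09%) were in the Spen KO lists of H3K27Ac and H3K9me3, in both H3K4me3 lists and in at least 1 Oct4 list, against 62 (0.451%) of all autosomal peaks. The difference is largely fixed by the choice of peaks, since peaks outside WT domains seldom have Spen KO H3K9me3.

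At promoters wholly inside domains, 19 peaks had a TSS and WT H3K4me3. Of the 6 strongest, 5 were on chromosome 4, between Gm13235 and 2610305D13Rik, and 1 was at 2210404J11Rik on chromosome 17. The Gm13235 peak, chr4:145458660-145461701, scored 35.7 and 25.6 in WT, and 26.9 and 36.8 without Spen, deep in a domain of 78.4 kb that scored 149 in WT and 167 in Spen KO. Gm13247 scored 32.1 and 20.0, and Zfp600, a zinc finger gene in the same stretch, 26.1 and 17.0. All 6 had H3K9me3 and H3K4me3 in both genotypes, and 5 had H3K27Ac in Spen KO; the exception was 2210404J11Rik. Zfp600 had 2 more domain peaks at its TSSs, chr4:146124711-146125146 and chr4:146125451-146126869, both with H3K27Ac and without H3K9me3 in Spen KO. The second most crowded domain, chr4:146390801-146411600, lay in this stretch too, with 7 domain peaks of which 6 had H3K27Ac and 0 had H3K9me3 in Spen KO. Over the 60 domain peaks of the stretch, 42 had H3K27Ac and 27 had H3K9me3 in Spen KO. Over the 65 of the chromosome 13 stretch the counts were 56 and 59. The shares over all domain peaks were 67.2% and 58.2%. The chromosome 4 stretch was thus near the first and below the second, and the chromosome 13 stretch was above both. At the median, the words of the 5 chromosome 4 promoter peaks occurred 3 to 5 times in the genome, so reads of these peaks could be shared with near-identical copies and their counts are uncertain.

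Peaks bound by Oct4 in 3 or more libraries were led by chr2:143981652-143989063, an intergenic peak 89.3 kb from Snx5 that crossed the end of a domain with 549 of its 7412 bp. Its Oct4 fold enrichment was 5.6 and 9.01 for WT libraries, against 5.61 and 9.6 for Spen KO, so the libraries of a genotype differed more than the genotypes. The second, chr11:62321884-62329299 over Pigl, an enzyme gene of GPI anchor synthesis, had 6.51 and 9.32 for WT, against 11.0 and 10.9 for Spen KO. Both had all marks in both genotypes.

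Among domain peaks without H3K9me3 in Spen KO, those described beside Kdelr2 were chr13:66515659-66516172 and chr14:12936598-12945599 over the receptor phosphatase gene Ptprg. The Ptprg peak scored 54.5 and 31.8 in WT, and 80.3 and 40.4 without Spen and had H3K4me3 in Spen KO alone. Among wholly inside peaks with H3K9me3 but no H3K27Ac in Spen KO, the strongest was chr7:6711957-6713042, 28.8 kb from the imprinted gene Peg3, with WT scores of 24.9 and 29.5. Its domain scored 132 in WT and 95.5 in Spen KO. The next were chr10:7171808-7173262, chr3:93510943-93512640 and chr12:89349058-89350301, none with H3K4me3 in either genotype.

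Few genes of the examined lists, as of all genes, had a domain peak at a TSS. Over all protein-coding genes on autosomes the count was 76 of 21281 (0.357%), with WT H3K27Ac at 4405 (20.7%). A TSS of 1738 of these genes (8.17%) lay in a WT H3K9me3 domain. Imprinted genes had none in 52, although 22 (42.3%) had a TSS in a WT H3K9me3 domain and 7 (13.5%) had WT H3K27Ac. Germline and 2-cell genes had none in 32, the H3K9me3 machinery none in 29, ribosomal protein genes none in 144 and protocadherin genes none in 24. At the share over all genes, lists of 24 to 144 genes would mostly hold none, so these counts are not a result about them. Olfactory and vomeronasal receptor genes had none in 1432, with 180 TSSs (12.6%) in domains and 1 (0.0698%) with H3K27Ac. The zinc finger list had 2 of 388 (0.515%), Zfp600 and Zfp605. It did not hold Gm13235, Gm13247 or 2610305D13Rik, which had domain peaks at a TSS. Whether genes outside the list encode zinc fingers was not examined, so the count may be too low.

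Nanog, the pluripotency transcription factor, was the only 1 of 26 pluripotency genes with a domain peak. The peak, chr6:122649835-122657297, lay 210 bp from the TSS and spanned a small domain of 1.8 kb, chr6:122655001-122656800, with a score of 128. H3K27Ac scored 47.2 and 31.3 in WT, and 67.5 and 40.7 without Spen, H3K4me3 was called in both genotypes and no Spen KO H3K9me3 was found. Oct4 was called in 3 of 4 libraries, with fold enrichments of 5.07 in WT replicate 2 and 6.5 and 5.43 in Spen KO. Zfp605 had a peak in an intron 936 bp from its TSS, chr5:110550075-110551514, scoring 15.7 and 13.2 in WT, with neither H3K27Ac nor H3K9me3 called in Spen KO.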

How the data were processed

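ChIP-seq peak lists of 16 ChIP libraries were analysed; the 12 input libraries have no list of their own. Per the methods, the authors used Bowtie2 to map read pairs to mm9, discarded pairs that were not unique and concordant, took out duplicates (Picard) and ran MACS2 against input with a q-value limit of 0.01. The deposited H3K27Ac and H3K4me3 lists hold a peak score for each of 2 libraries, described as technical replicates, and the IDR, kept under 0.05; the MACS2 column behind the score is not given in the sources used here. In the deposited H3K9me3 lists, each domain is a run of 200 bp windows, with a score whose values follow a log2 enrichment over input times 100 and a p-value that was not used; how both libraries were combined is not given in the sources used here. The deposited Oct4 lists hold a fold enrichment, used here, and p-values and q-values as −log10, not used. DESeq2 comparisons of the authors were not used.

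Overlap was counted from 1 bp with Python 3.11.15, NumPy 2.4.6, pandas 2.3.3 and SciPy 1.17.1 on the 19 autosomes, after bringing starts and ends of all lists to 1 convention. Genes and TSSs (transcript starts of protein-coding genes) came from GENCODE vM1, and copies from all 31-base words of mm9. Intervals of shares are Wilson 95% intervals and include no error beyond counting. Oct4 shares were compared by exact permutation and sign-flip tests over libraries, tested on simulated data. Lists are thresholded, so an absent peak may lie just under the limit. The alternatives are in the closing section.

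The peaks, gene lists and tests were chosen with earlier results of these data known. Named peaks were those with the highest mean WT H3K27Ac score: 6 wholly inside, 6 of these with a TSS and WT H3K4me3, 6 with Oct4 in at least 3 libraries, 4 without H3K9me3 in Spen KO, 4 wholly inside with H3K9me3 but without H3K27Ac in Spen KO, up to 4 per gene list, and 3 on each side of the overlap limit. Of these, the ones printed are those the text turns on, and 1 peak that the rule names is not reported here. Sequences of chromosome 18 were not searched for the octamer stretches shown.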

Additional observations from a re-analysis of the deposited data

How the results depend on the processing

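Each share was recomputed under stricter and looser rules. The share of H3K27Ac peaks in domains, 8.01%, was 6.24% when 50% of the peak had to be covered, 8.56% with the stronger 50% of H3K27Ac peaks, 4.16% with the stronger 50% of domains and 9.2% with peaks within 1000 bp merged. Numbering these settings from 1 to 4, H3K27Ac in Spen KO (67.2%) was 64.2% and 83.8% under settings 1 and 2, H3K9me3 in Spen KO (58.2%) was 62.4%, 66.1% and 61.3% under settings 1, 3 and 4, WT H3K4me3 (24.8%) was 20.0%, 33.9%, 18.5% and 32.5%, a TSS (7.45%) was 5.94%, 5.07% and 10.9% under settings 1, 3 and 4, multi-copy sequence (7.27%) was 9.21% and 9.62% under settings 1 and 3, and peaks wholly inside (57.8%) were 49.1%, 61.5% and 46.9% under settings 2 to 4.

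With wholly inside peaks alone, H3K9me3 in Spen KO was 65.3%, WT H3K4me3 17.8%, a TSS 5.35% and multi-copy sequence 10.5%. When peaks up to 1000 bp apart counted as shared, H3K27Ac in Spen KO was 74.1%, H3K9me3 70.7% and WT H3K4me3 31.1%, and with 50% of the peak covered by the other list they were 61.5%, 43.1% and 17.6%. With lists of equal length, H3K27Ac was 71.4% and H3K9me3 47.0%. A TSS within 5000 bp was at 16.7% and of any gene biotype at 11.6%, and multi-copy shares were 15.6% at 5 copies and 4.9% at 50. Without TSS peaks, WT H3K4me3 was 21.2%.

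H3K27Ac in Spen KO was 7.9 percentage points (95% interval 5.0 to 10.8) more frequent at domain peaks than at other peaks; this was 4.56 with 50% covered, 1.97 with the stronger 50% of H3K27Ac peaks, 4.64 with lists of equal length, 4.95 with other peaks weighted to the same quintiles of score, and 19.1 without TSS peaks, positive under every alternative run. Over all peaks it was 6.43 points without the stretches of chromosomes 4 and 13. The 19.1 points without TSS peaks were not recomputed without these stretches.

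For Oct4, Spen KO minus WT was 5.22 points, -2.86 without WT replicate 1, and -2.86 to 13.3 when each library was left out. With the replicate number as a block it was 5.22 (exact permutation p = 1, smallest possible 0.5); the labels share numbers but name no common batch, and with 1 share per library and 2 numbers a pairing could not be checked. Domain minus other peaks was 5.36 to 9.14 points when each library was left out, and 3.22 to 10.8 under all alternatives. Of 84 alternatives, 40 stayed within the interval or on the same side of the test, 43 moved and 1 changed sign. The comparisons without TSS peaks, within quintiles of width and without both stretches, and the difference in H3K27Ac in Spen KO between domain and other peaks under each setting but the score quintiles, were chosen after seeing the data. Depth was unknown, so no value here is corrected for it.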
